A study of Arabidopsis thaliana with 24 samples.

Results

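The alpha-expansin genes of Arabidopsis thaliana, those whose symbol is EXPA followed by a number, were described across 24 arrays that set decapped mRNA against total mRNA. The members were chosen by symbol alone, through the platform's annotation of its probes, and they are the 9 such genes with a measurement on every day, among 10608 genes tested. They are EXPA4, EXPA7, EXPA9, EXPA15, EXPA16, EXPA20, EXPA22, EXPA24 and EXPA25, each read by 1 probe. Once the family was picked, the only measured property used to choose its members was whether the probe held a measurement on each day. The family was picked out with earlier results of these arrays known, so the tests on its levels are given as descriptions of these arrays and not as independent evidence about the family.

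All samples came from 1 genotype, 35S:AP1-GR ap1 cal, in which the mutations in AP1 and CAL leave the shoot apex as a mass of meristems and AP1 fused to the glucocorticoid receptor's hormone-binding part is made from the 35S viral promoter, which is active in most cells. Every plant received 1 µM dexamethasone, which lets AP1-GR enter the nucleus. Inflorescence tissue of about 25 plants per time point was collected on days 0, 1, 2, 3, 4 and 5, and 4 sets were made, so that a day holds 4 arrays. The day 0 group carries the same mutations and the same transgene as the later days, and there is no group without the transgene.

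Expansins are wall proteins that loosen the contacts between cellulose and the matrix polymers bound to it, without cutting the chains, most actively at the acid pH that growing cells give their walls. Alpha-expansins are the largest of the plant expansin families, and in shoot apices they are known for their activity where organs start and expand. Removal of the 5' cap commits an mRNA to decay from its 5' end, so decapped mRNA is the part of a gene's transcripts that has entered that step.

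Each value is a log ratio of the decapped to the total mRNA of 1 sample, taken as log2, so that a negative value means that the gene was poorer in the decapped pool than in total mRNA, relative to other genes on that array. The direction is likely and not settled: the decapped RNA is listed as the first channel of every sample, but the deposited table does not state which way its ratios run, nor its log base. If the ratios run the other way, each "lower" reads "higher". A ratio holds no level of either pool, so it cannot be said from these values how strongly an expansin was expressed. Nothing in the labels says that the 4 sets were separate plantings, so the p-values measure the spread between these samples, which may in part be technical.

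The 24 arrays carry 26102 probes with values from -10.53 to 10.07, and their medians run from -0.14 to 0.30. On each day the decapped RNA was in Cy3 on 2 arrays and in Cy5 on 2, with the orientation alternating between days within a set. The lowest correlation between any pair of arrays was 0.198. Of the markers fixed for the tissue, 1 of 5 shoot meristem genes (CLV3) and 1 of 7 floral meristem genes (UFO) were measured. So were 2 of 2 boundary genes (LOB and LAS) and 7 of 19 genes of leaf and stem green tissue, but none of 5 root hair or 3 pollen genes. Apart from the pollen gene VGD1, the markers not measured had no paired probe, so their absence tells nothing about the tissue. Since the values are ratios, the tissue could not be checked from marker levels.

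Over the 6 days together, 8 of the 9 alpha-expansin genes were lower in decapped than in total mRNA and 0 were higher. Of all genes tested, 43.5% were lower and 29.7% higher at the same threshold, an adjusted p of 0.05 from limma over all genes. The median member stood at -1.12, against -0.16 for all genes tested, whose middle quartiles run from -0.96 to 0.42. The exception was EXPA25, which lay slightly above 0 without passing the test. EXPA15 is among the lower members, but it averaged 0.15 on the arrays with the decapped RNA in Cy5. EXPA8, EXPA18 and EXPA21 have a probe but not a measurement on every day, so they are not counted. When values that many probes share on a day were kept, EXPA8 (0.84) and EXPA18 (0.21) were higher. EXPA21 (0.05) did not pass. These means include values shared with many other probes: EXPA18 held values that no other probe carried on day 5 only, and EXPA8 on days 2 to 5. Of the 216 single values of the members, 178 were below 0, which is 82.4% of them against 55.6% of the values of all genes tested.

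**Figure D1:**
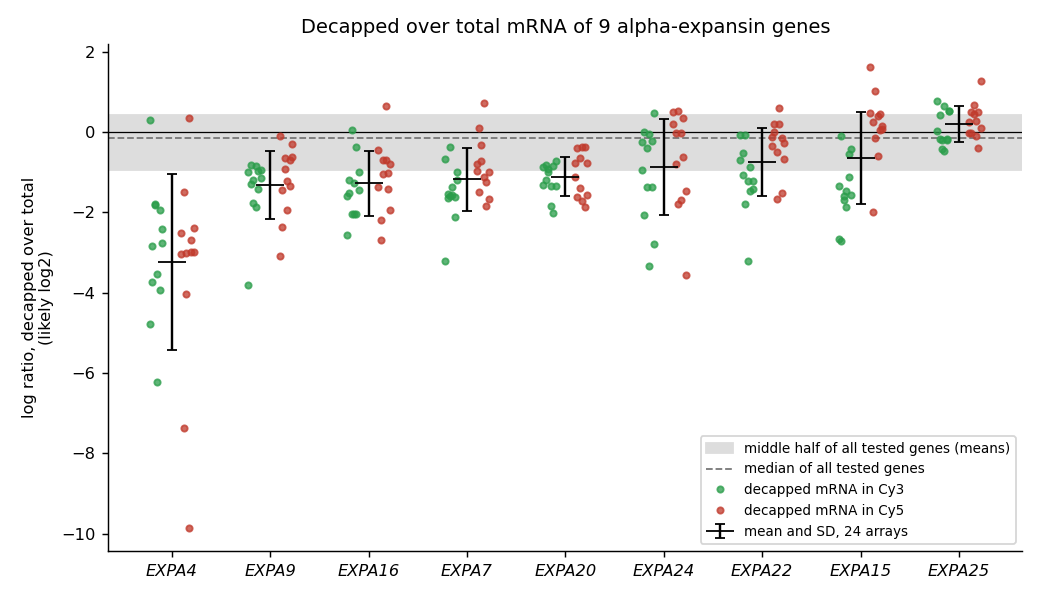
Log ratio of decapped to total mRNA (vertical axis, log2) of each alpha-expansin gene on all 24 arrays, with each gene's mean and SD. EXPA4 is the lowest at a mean of -3.23 with the widest spread, EXPA9 and EXPA20 lie below 0 on all 24 arrays, and EXPA25 lies around 0 with a mean of 0.20.

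EXPA4 (AT2G39700, on chromosome 2), an alpha-expansin, gave the lowest ratio of the family, -3.23 ± 2.19 (SD, n = 24), with an adjusted p of 1.01e-06 from limma. Only 80 genes, 0.754% of those tested, had a lower mean. Its single values ran from -9.85 to 0.35 around a median of -2.91, and 22 of 24 were below 0. Read as log2, the mean is a 9.38-fold excess of total over decapped signal.

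EXPA4 was also the most variable member, with an SD above that of 99.4% of genes. On day 0 its values in sets 1 to 4 were -4.79, 0.29, -3.04 and -2.52. The day 1 values were -1.49, -7.38, -2.85 and -3.74. On both days set 2 stood apart from the other 3 sets, above them on day 0 and below them on day 1. The widest day was day 3, with values of 0.35, -9.85, -6.22 and -3.54. The -9.85 of set 2 was the second lowest value of any tested gene on that array. By contrast, the day 5 values were -2.38, -2.98, -2.42 and -2.75, a group with an SD of 0.28. Days 2 and 4 lay between, with means of -2.66 ± 1.08 and -2.89 ± 0.83 (SD, n = 4). The mean passed the test on day 1 (adjusted p = 0.00757, limma), day 3 (0.0016) and day 4 (0.0374), and on day 5, where the 4 arrays lay closest together, it had an adjusted p of 0.0551, since the fit borrows its spread from all 24 arrays.

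EXPA9 (AT5G02260, chromosome 5) and EXPA20 (AT4G38210, chromosome 4), also alpha-expansins, were the members that lay below 0 on all 24 arrays, as 12.4% of genes tested did. EXPA9 averaged -1.32 ± 0.84 (SD, n = 24; adjusted p = 4.53e-07, limma). Its day 0 values of -3.81, -1.0, -0.10 and -3.09 in sets 1 to 4 spanned its whole range over the 24 arrays. On day 5 the values were -0.29, -0.63, -0.94 and -1.13. The day 5 values thus lay inside the span of day 0, and the mean went from -2.0 ± 1.74 to -0.75 ± 0.37. EXPA9 passed the test on days 0 to 4 and not on day 5 (adjusted p = 0.157, limma).

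EXPA20 averaged -1.12 ± 0.49 (SD, n = 24; adjusted p = 2.17e-08, limma) and was the steadiest of the lower members, with an SD above that of only 22.0% of genes. It was the one member lower on each of the 6 days. Its values were -1.31, -0.87, -1.12 and -0.76 on day 0 in sets 1 to 4. Day 3 gave -0.36, -1.71, -1.84 and -1.33. Day 5 gave -0.78, -1.58, -1.35 and -0.71. On days 1, 3, 4 and 5 sets 2 and 3 were both below sets 1 and 4, although each of these pairs holds both dye orientations, and set differences made up 50.4% of its spread, more than for 89.5% of genes. The daily means stayed between -1.31 and -0.98. With each set averaged to 1 value, the adjusted p of EXPA20 was 0.00351 (limma). In that fit EXPA4, EXPA9, EXPA16 and EXPA7 had adjusted p-values of 0.00111, 0.00306, 0.00256 and 0.00135 (limma). Those of EXPA22, EXPA15 and EXPA24 were 0.0348, 0.0452 and 0.079, the last not passing.

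EXPA16 (AT3G55500, chromosome 3) averaged -1.28 ± 0.81 (SD, n = 24; adjusted p = 4.59e-07, limma), with 22 of 24 values below 0. It was lowest on day 1, at -2.19, -2.69, -1.20 and -1.51 in sets 1 to 4, a mean of -1.90 ± 0.67. On days 2 and 3 set 1 was the only one above 0, at 0.05 and 0.65, and these were the 2 days on which EXPA16 did not pass the test. The other 3 sets stayed between -2.04 and -0.70 on those days.

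EXPA7 (AT1G12560, chromosome 1), which in Arabidopsis is known as a root hair gene, averaged -1.17 ± 0.78 (SD, n = 24; adjusted p = 3.52e-07, limma). It passed on days 0, 1, 4 and 5. Set 1 departed from the other 3 sets in both directions. It was the lowest on day 0, when sets 1 to 4 gave -3.20, -0.68, -0.79 and -0.97. It was the only one above 0 on day 1, with 0.10, -1.49, -1.65 and -1.54, and again on day 3, with 0.72, -1.11, -1.56 and -1.37. These departures were not particular to EXPA7. Set 1 was also the lowest on day 0 for EXPA4, EXPA9, EXPA15, EXPA16 and EXPA20, but not for EXPA22, EXPA24 and EXPA25. On day 3 it was also the highest for EXPA4, EXPA16, EXPA20, EXPA22 and EXPA24, but not for EXPA9, EXPA15 and EXPA25. On day 4 all 4 values of EXPA7 lay close together, at -1.61, -2.12, -1.83 and -1.25. This was the lowest daily mean of EXPA7, -1.70 ± 0.37.

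**Figure D2:**
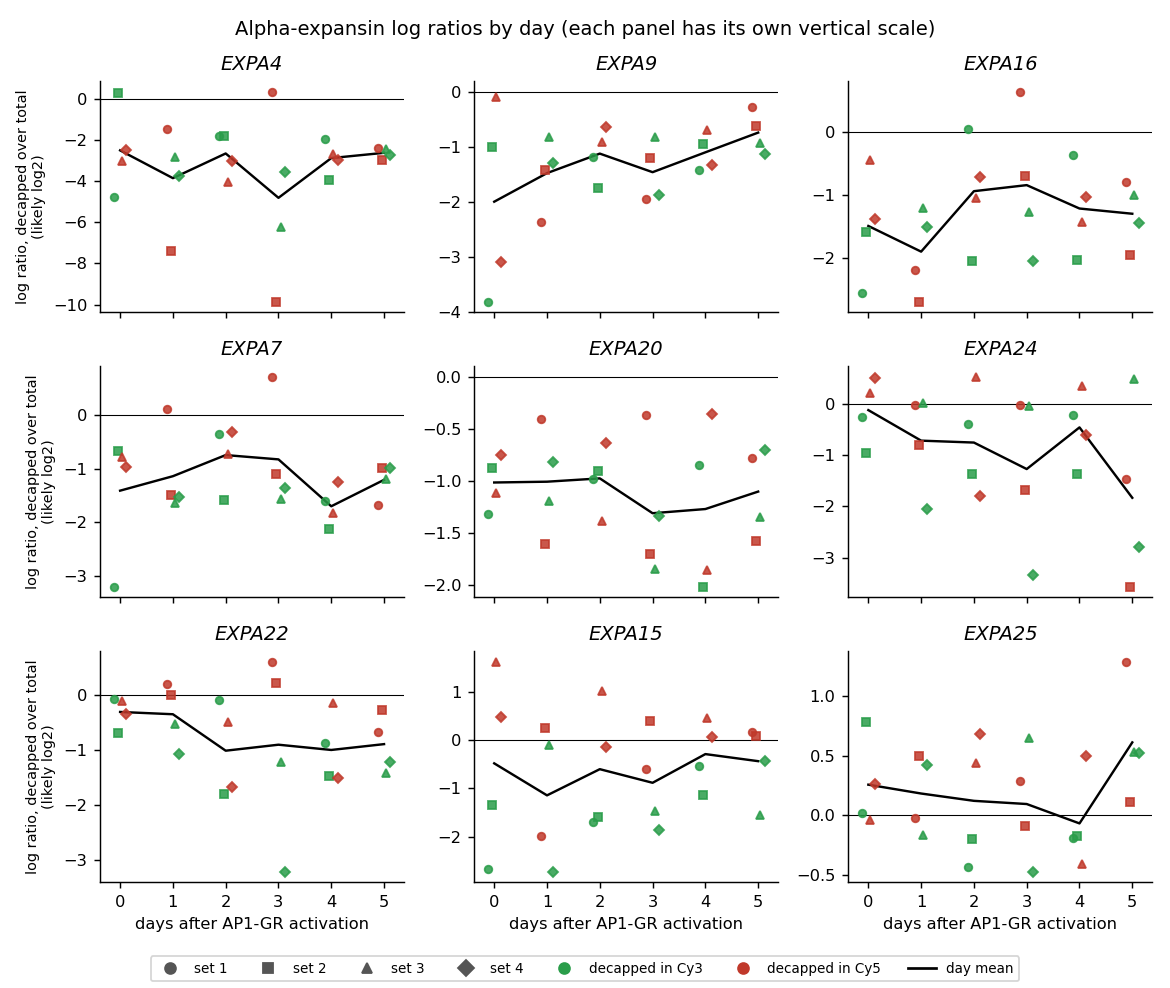
Log ratio of decapped to total mRNA (log2) of each alpha-expansin gene against day, 1 point per array, with the mean of the 4 sets on each day. The points of EXPA4 on day 3 run from -9.85 to 0.35 while those on day 5 run from -2.98 to -2.38, and no member's points on a later day lie wholly apart from its points on day 0.

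EXPA22 (AT5G39270), EXPA24 (AT5G39310) and EXPA25 (AT5G39300) belong to a row of 6 alpha-expansin genes that stand next to each other on chromosome 5 in RefSeq's TAIR10.1 annotation, with EXPA21, EXPA23 and EXP26. EXPA24 and EXPA22 were lower in decapped mRNA, at -0.86 ± 1.20 and -0.74 ± 0.85 (SD, n = 24; adjusted p = 0.00227 and 0.000248, limma), and EXPA25 was at 0.20 ± 0.44 (adjusted p = 0.07). Neighbours with similar sequence can share hybridisation, and no probe sequence was used here, so how far these 3 probes read each other's transcripts was not tested.

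EXPA24 differed between sets more than between days. Set 3 averaged 0.26 ± 0.24 over its 6 days (SD, n = 6) and set 1 averaged -0.39 ± 0.54. Sets 2 and 4 averaged -1.63 ± 1.00 and -1.68 ± 1.41. Set differences made up 49.4% of the spread of EXPA24, more than for 88.5% of genes. On day 5, the only day on which its mean passed the test, sets 1 to 4 gave -1.46, -3.57, 0.48 and -2.79, a mean of -1.83 ± 1.77 (adjusted p = 0.0148, limma). Set 3 was thus above 0 on that day while the other sets were at their lowest or near it. The mean over the 6 days no longer passed without set 2 (-0.61, adjusted p = 0.0618, limma) or without set 4 (-0.59, adjusted p = 0.0516), and the day 5 call was lost in both cases too.

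EXPA22 showed its lowest values in set 4, which averaged -1.51 ± 0.95 over 6 days, against -0.15 ± 0.55 for set 1. On days 0 and 1 the means were -0.31 ± 0.29 and -0.35 ± 0.58, and from day 2 on they lay between -1.01 and -0.89. Days 2 and 4 passed the test, with adjusted p-values of 0.0474 and 0.0458 (limma). EXPA22 passed on 0 days without set 2, 3 or 4 and with no dye term. On day 3 the sets ran from -3.22 in set 4 to 0.61 in set 1, and on day 4 they were -0.87, -1.47, -0.15 and -1.51 in sets 1 to 4.

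EXPA25 was above 0 on 14 of 24 arrays, and its values ran from -0.47 to 1.28. Its SD of 0.44 was the smallest of the family and above that of 14.8% of genes. On day 5 sets 1 to 4 gave 1.28, 0.11, 0.53 and 0.52, all above 0, a mean of 0.61 ± 0.49. This was the only value of a member on a single day that passed the test on the higher side (adjusted p = 0.0481, limma), on a day when 18.3% of all genes did. It did not pass without set 1, 3 or 4, nor with each array centred on its median.

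EXPA15 (AT2G03090, chromosome 2) averaged -0.64 ± 1.15 (SD, n = 24; adjusted p = 0.00254, limma), and its value turned on the dye. On the 12 arrays with the decapped RNA in Cy3 it averaged -1.43 ± 0.81 and was below 0 on all 12. With the decapped RNA in Cy5 it averaged 0.15 ± 0.88 and was below 0 on 3 of 12. The difference between orientations, Cy5 minus Cy3, was 1.57 ± 0.35 (SE; adjusted p = 0.0306, limma), and 73 genes, 0.688% of those tested, passed on that side. The negative mean of EXPA15 thus came from the Cy3 arrays. On day 0 sets 1 and 2, in Cy3, gave -2.67 and -1.34, and sets 3 and 4, in Cy5, gave 1.62 and 0.47. Day 1 was the only day on which it passed the test, at -1.14 ± 1.44 (adjusted p = 0.0413, limma), and it passed on 0 days without set 1, 2 or 4 and with no dye term.

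EXPA22 leaned the same way by orientation, at -1.14 ± 0.85 in Cy3 and -0.35 ± 0.67 in Cy5 (SD, n = 12 each), below 0 on 12 of 12 and 9 of 12 arrays. EXPA7 stood at -1.49 ± 0.72 in Cy3 and -0.86 ± 0.74 in Cy5, a dye difference with an adjusted p of 0.684 from limma. EXPA4, EXPA9, EXPA16 and EXPA20 had means under -1 in both orientations. For EXPA4 they were -2.96 ± 1.67 in Cy3 and -3.50 ± 2.67 in Cy5.

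In order from the lowest mean, the members stood as EXPA4, EXPA9, EXPA16, EXPA7, EXPA20, EXPA24, EXPA22, EXPA15 and EXPA25. Of the 8 steps between neighbours, 2 were larger than their SD over the 4 sets. EXPA4 lay 1.91 below EXPA9 (SD over sets 1.35), in the same order in 4 of 4 sets and on 20 of 24 arrays. EXPA15 lay 0.84 below EXPA25 (SD over sets 0.52), in the same order in 4 of 4 sets and on 18 of 24 arrays. The other 6 steps, of 0.04 to 0.25, were within the spread of the sets, so the members from EXPA9 to EXPA15 cannot be ranked among neighbours. None of the 8 steps was larger than its SD over single arrays.

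**Figure D3:**
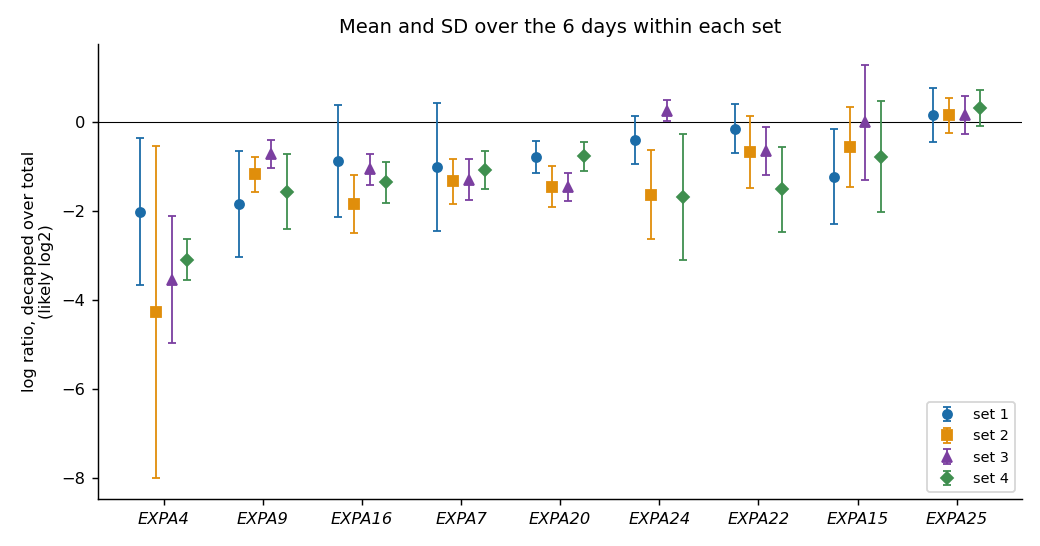
Log ratio of decapped to total mRNA (log2) of each alpha-expansin gene averaged over the 6 days within each of the 4 sets, with the SD over days. EXPA24 averages 0.26 in set 3 and -1.63 and -1.68 in sets 2 and 4, whereas EXPA25 lies between 0.15 and 0.32 in every set.

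Taken by day, the counts of lower members were 4 on day 0, 6 on day 1, 3 on day 2, 3 on day 3, 6 on day 4 and 4 on day 5. The shares of all genes that were lower on those days were 27.7%, 22.2%, 19.7%, 27.1%, 23.8% and 20.8%. The median member stayed between -1.14 and -0.90 on every day, and the median of all genes between -0.24 and -0.03. Of the 54 pairs of a member and a day, 26 were lower and 1 was higher. The count of 26 was 31 without set 1, 16 without set 2, 15 without set 3 and 13 without set 4, and 9 when each day's spread was taken from its own 4 arrays. EXPA20 was lower on 6 days, EXPA9 on 5, EXPA16 and EXPA7 on 4, EXPA4 on 3, EXPA22 on 2, and EXPA15 and EXPA24 on 1 each. With 1 set left out, these days ran from 3 to 6 for EXPA20, from 1 to 4 for EXPA9, from 2 to 6 for EXPA16 and EXPA7, and from 1 to 6 for EXPA4.

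Whether the ratio changed after dexamethasone was asked by setting each later day against day 0. None of the 45 differences of a member from day 0 passed the test in limma, none of all genes tested did (0%), and 2 of the 45 had an unadjusted p under 0.05. EXPA9 was 1.25 ± 0.58 higher on day 5 than on day 0 (SE; unadjusted p = 0.0423, adjusted 0.999, limma). EXPA24 was lower on day 5, with a difference of -1.71 ± 0.80 (SE; unadjusted p = 0.0451, adjusted 0.999, limma). For day 5 minus day 0, 3.11% of all genes had an unadjusted p under 0.05. The day 5 minus day 0 differences of the other members ran from -0.59 ± 0.54 for EXPA22 to 0.35 ± 0.34 for EXPA25. EXPA4 had the widest error, at -0.12 ± 1.50 (SE). Without set 1, in which EXPA4 was at -4.79 on day 0 and 0.35 on day 3, EXPA4 on day 3 differed from day 0 by -5.52 ± 1.05 (SE; adjusted p = 0.0372, limma with the dye term), the one difference of a member that passed in any alternative. The plain means of the 3 sets left were -1.75 ± 1.79 on day 0 and -6.54 ± 3.17 on day 3 (SD, n = 3), and their dye orientations are not balanced.

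The 4 values of a member on a later day never lay wholly apart from its 4 values on day 0, in 0 of 45 cases. Among all genes such separation was found for 0.707%, 0.933%, 1.53%, 1.21% and 1.89% of genes on days 1 to 5. The F test over the 6 days and the slope on day each called 0 members in limma, and 0 members had an unadjusted p under 0.05 in either, as 1.34% and 2.21% of all genes did. The comparisons with day 0 share the day 0 arrays and are not independent of each other. Day differences made up 23.3% of the spread of EXPA25, 22.6% of EXPA9, 22.3% of EXPA24, 19.8% of EXPA16, 18.3% of EXPA7, 15.3% of EXPA4, 12.8% of EXPA22, 7.54% of EXPA20 and 6.62% of EXPA15, against a median of 13.5% for all genes.

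Over all 24 arrays the members moved little with each other, although set 1 stood lowest on day 0 and highest on day 3 for several of them. After each array's median was subtracted, the 36 pairs of members had correlations over the 24 arrays with a median of 0.08, against 0.00787 for all pairs of genes. The range ran from -0.41 for EXPA9 with EXPA20 to 0.45 for EXPA4 with EXPA20. In the chromosome 5 row, EXPA22 and EXPA24 correlated at 0.41, and EXPA25 correlated with them at -0.12 and -0.14. These arrays share labelling, dye orientation and set, so the correlations are descriptions of the arrays.

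Among 1260 genes with a symbol that were searched, those most like EXPA4 from array to array were TBL23 (r = 0.92), TUBG1 (0.88) and ATMRK1 (0.82), each over 24 arrays. TBL23 itself averaged -0.42, far above EXPA4. Without the 2 arrays farthest from EXPA4's median, those of set 2 on days 1 and 3, the correlations over 22 arrays were 0.78, 0.80 and 0.61. For EXPA25 the most like genes were AGL48 (0.74), AGL93 (0.69) and TRM23 (0.63), and without its 2 farthest arrays they were at 0.70, 0.61 and 0.58.

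The members are short genes: their median span in RefSeq's TAIR10.1 annotation was 1498 bases, against 2181 for all genes tested. They range from 1114 bases for EXPA25 to 2201 for EXPA9. From the lowest mean up, EXPA4, EXPA9 and EXPA16 spanned 1915, 2201 and 1498 bases. EXPA7, EXPA20 and EXPA24 spanned 1465, 1218 and 1574 bases. EXPA22, EXPA15 and EXPA25, with the highest means, spanned 1195, 1866 and 1114 bases. Whether the ratio goes with the span was not tested.

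RefSeq lists 26 alpha-expansin loci, 1 of them a pseudogene, and 24 carry a symbol of EXPA with a number. A probe was paired with 12 of the 26, and the other 14, EXPA1, EXPA5 and EXPA10 among them, were not analysed here. Besides the 9 members, EXPA8, EXPA18 and EXPA21 had a probe, but not a measurement on every day. On a day without a measurement a probe carried the value shared by 770 to 4424 probes of that day. Of their 11 measured gene-days, 6 held values that other probes carried too, against 0 of 54 for the members.

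EXPA8 is the one of these 3 with wide values. It had no measurement on day 0. On day 2 sets 1 to 4 gave 2.31, -0.37, -0.06 and 1.46. On day 4 they gave 3.03, -0.45, -0.20 and 2.54, and on day 5 3.55, 0.27, 2.13 and 2.80. Sets 1 and 4 were the high ones on days 2, 3 and 4, and these sets lie in opposite dye orientations on each day. The day 5 mean was 2.19 ± 1.40 (SD, n = 4). EXPA8 was thus above 0 in sets 1 and 4 from day 1 on, where the members, EXPA25 apart, were mostly below 0, and its day 1 values were those of 16 other probes. It was left out of the tests across the 6 days, having no value on day 0.

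EXPA18, which like EXPA7 is known as a root hair gene in Arabidopsis, had values on days 1, 3, 4 and 5. Its day 5 values were 0.33, 0.77, 0.22 and 1.70 in sets 1 to 4, a mean of 0.76 ± 0.67. On days 1, 3 and 4 its values were those of 23, 73 and 14 other probes, so they may not be measurements of EXPA18. EXPA21 had values on days 1 and 3 only, 0.22 ± 0.29 and 0.10 ± 0.16, which 47 and 64 other probes carried too.

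**Figure D4:**
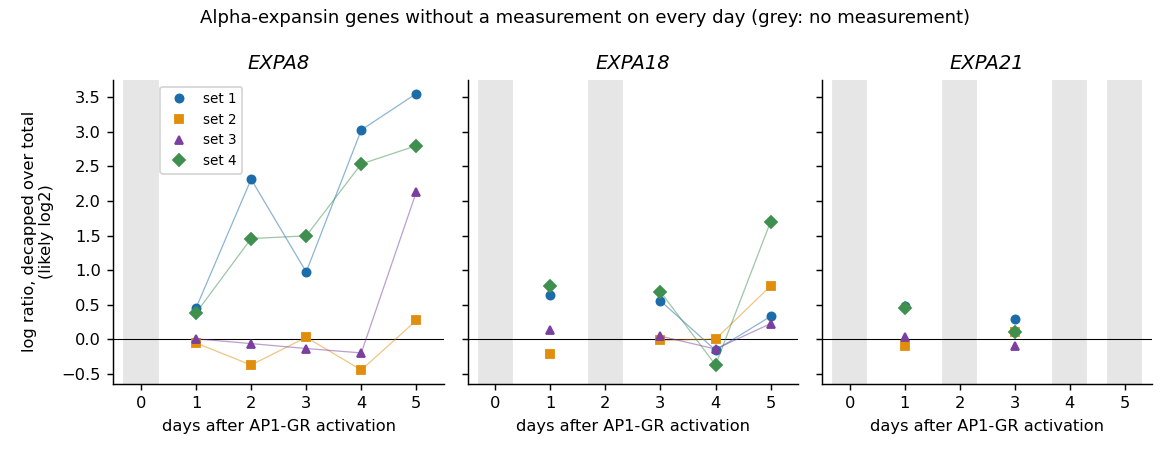
Log ratio of decapped to total mRNA (log2) against day for EXPA8, EXPA18 and EXPA21, the alpha-expansin genes with a probe but without a measurement on every day, 1 point per array. EXPA8 reaches 3.55 in set 1 and 2.80 in set 4 on day 5, and EXPA18 reaches 1.70 in set 4.

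Other genes of wall loosening and wall assembly were taken as lists, matched by annotation, and each list's counts stand beside the 43.5% of all genes that were lower and the 29.7% that were higher, with no test of any list. Of 12 lists fixed, 7 had a tested gene. The lists of cellulose synthases, plasma membrane proton pumps, arabinogalactan proteins, extensins and SAUR genes had no paired probe, so the wall genes are covered only in part. The beta-expansins, which share the expansin fold and in grasses include pollen allergens, had 5 tested genes, of which 3 were lower and 1 higher over the 6 days, with a median of -0.48. EXPB3 was at -2.66 ± 0.59 (SD, n = 24; adjusted p = 2.33e-13, limma) and below 0 on all 24 arrays, next to EXPA4 in size but with far less spread. EXPB1 and EXPB5 were at -0.59 ± 0.76 and -0.48 ± 0.54. Of the expansin-like genes, for which no wall loosening is established, EXLA2 and EXLA1 were higher, at 0.96 ± 0.48 and 0.72 ± 0.68, and EXLA3 was lower, at -0.60 ± 0.84.

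The xyloglucan endotransglucosylase/hydrolases, enzymes that cut and rejoin the xyloglucan on which expansins act, had 6 tested genes, with a median of -0.69. Of these, 4 were lower and 0 higher, where 43.5% of all genes were lower and 29.7% higher. XTH32 was at -2.03 ± 0.88, EXGT-A3 at -0.74 ± 0.43 and XTH19 at -1.53 ± 1.23 (SD, n = 24; adjusted p = 7.2e-09, 1.95e-06 and 3.28e-06, limma). Of 9 cellulose synthase-like genes, 6 were higher and 1 was lower, with a median of 0.71, where 29.7% of all genes were higher. CSLC6, CSLC5 and CSLC12, of the group that makes the glucan backbone of xyloglucan, were at 1.99 ± 0.48, 1.83 ± 0.65 and 1.17 ± 0.63 (SD, n = 24), with adjusted p-values of 2.04e-12, 3.31e-10 and 2.13e-07 from limma.

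Of 3 pectin methylesterase genes, whose enzymes remove methyl groups from pectin, 1 was lower, ATPMEPCRB at -1.53 ± 1.11, and PME61 and AT4G02300 stood at 0.25 ± 0.79 and 0.16 ± 0.64 without passing. The endoglucanases, which cut glucan chains, were mixed, with 3 of 12 higher, 4 lower and a median of -0.06. GH9B13 was at 0.80 ± 1.13, GH9B8 at -0.65 ± 0.72 and GH9B15 at -0.55 ± 0.70. Of the pattern for polygalacturonases only PGL34 and FIB were tested, and these are genes of plastoglobule proteins and not polygalacturonases. PGL34 was at 0.76 ± 0.43 and FIB at -2.94 ± 1.08. Without these 2, the lists held 38 tested genes, 12 higher and 14 lower, with a median of 0.07, shares near those of all genes (29.7% and 43.5%).

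**Figure D5:**
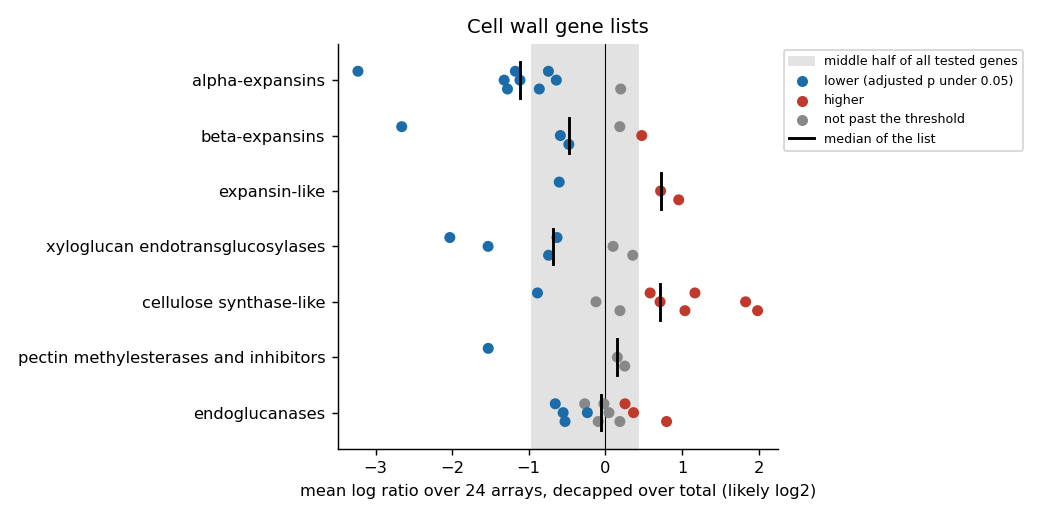
Mean log ratio of decapped to total mRNA (log2) over 24 arrays of each tested gene in the alpha-expansins and in the lists of wall genes, 1 point per gene, with the median of each list. The median is -1.12 for alpha-expansins, -0.69 for xyloglucan endotransglucosylase/hydrolases and 0.71 for cellulose synthase-like genes.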

How the data were processed

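Decapped and total mRNA of the same sample were compared on 24 2-colour arrays. The deposited table gives 1 value per probe and array, read here as log2 ratios of decapped over total mRNA. Base and direction are likely and not stated, and how the authors corrected, normalized and centred the values is not given in the sources used here. The members and the gene lists were chosen with earlier results of these data known. The symbols come from the platform annotation, which names 13960 probes, and loci and spans from RefSeq (TAIR10.1). On each day the most common 4 values were read as no measurement. Probes of 1 gene were averaged, and 10608 of 13746 named genes with a measurement on every day were tested. limma 3.58.1 in R 4.3.3 fitted day means and a dye term to all 24 arrays, with Benjamini-Hochberg adjustment over all genes and a threshold of 0.05. Genes were named as follows: every member, and up to 3 genes of each wall list, those with the smallest p, and the 3 genes with a symbol most correlated with the members of lowest and highest mean. The number of arrays, 4 a day, limits the precision. The fits were also run on simulated data whose arrays were drawn independently of each other. That run does not show how the p-values hold for arrays that correlate within a set. Alternatives were the set as a block or random block, no dye term, centred or scaled arrays, array weights, shared values kept, 1 dye orientation, 1 value per set, and sets or arrays left out.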

Additional observations from a re-analysis of the deposited data

Results flagged for a closer look

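Of 65 groups of 4 arrays examined (a gene on a day), 2 held a value far from the other 3, both in EXPA7 and both in set 1. On day 0 the value of set 1 was -3.20 and the others ran from -0.97 to -0.68, with the decapped RNA of set 1 in Cy3. On day 1 the value of set 1 was 0.10 and the others ran from -1.65 to -1.49, with the decapped RNA of set 1 in Cy5. Chance flags about 1 in 20 such groups. On day 0 set 1 was also the lowest of the 4 for EXPA4, EXPA9, EXPA15, EXPA16 and EXPA20, so that array stood low for more members than EXPA7.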

How the results depend on the processing

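The count of 8 lower members over the 6 days was 8 in all alternatives but 4. It was 7 without set 2, without set 4 and with 1 value per set (adjusted p of EXPA24 0.0618, 0.0516 and 0.079, limma). With only the Cy5 arrays it was 5, where EXPA24 (-0.70) and EXPA22 (-0.35) did not pass and EXPA15 turned to 0.15. The count of higher members went from 0 to 2 with shared values kept (EXPA8 at 0.84 and EXPA18 at 0.21), which admits genes left out of the main test, and ran from 0 to 1 over single arrays left out, where EXPA25 passed in 4 cases. Lower members on single days, 26 in all, were 7 with only the Cy3 arrays, 1 with only the Cy5 arrays (2 arrays a day each), 9 with only that day's arrays, and from 13 to 31 without 1 set. Higher ones, 1 in all (EXPA25), were 0 with the block, the random block, centred arrays, scaled arrays, 1 orientation or only that day's arrays, 3 with shared values kept, and 0 to 1 without 1 set. Differences from day 0 that passed ran from 0 to 1 without 1 set (EXPA4, day 3, without set 1). Lower genes of the wall lists, 15 with the plastoglobule gene FIB counted, were 9 with 1 value per set and 8 with only the Cy5 arrays.

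The sign of day 5 minus day 0, passed by no member, turned as follows. For EXPA15 (0.05) it was -0.11 with centred arrays, -0.46 with scaled arrays, -0.34 with array weights, -0.92 with Cy5 only, and -0.30 to 0.62 without 1 set. For EXPA16 (0.19) it was -0.19 scaled, -0.46 with Cy5 only and -0.24 to 0.48 without 1 set. For EXPA7 (0.20) it was -0.18 scaled, -0.013 with weights, -0.45 with Cy5 only and -0.13 to 0.68 without 1 set. For EXPA4 (-0.12) it was 0.10 with Cy5 only and -1.69 to 1.30 without 1 set. For EXPA20 (-0.09) it was 0.066 with Cy3 only and -0.32 to 0.24 without 1 set. Why they turned was not tested.

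With the set number as a fixed replicate block, 8 members were lower over the 6 days and 32 pairs of a member and a day were lower. That fit takes the differences between sets out of the error, so it cannot show whether the calls hold against them. With the set as a random block these counts were 8 and 28, and with 1 value per set 7 members were lower. Of 60 pairs of arrays from the same set, 48 correlated above 0.1 after day means and dye were removed (median 0.277, lowest -0.188), and for 22 of 24 arrays the most correlated array of another day was of the same set, a hint from the data and not from the design. With only 4 arrays a day, errors on a single day are wide, and signal over background is not in the deposited ratios.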
